A study of Arabidopsis thaliana with 6 samples.

Results

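The stretch of mitochondrial DNA inserted near the centromere of chromosome 2 of Arabidopsis thaliana was described through 96 of the 60936 feature IDs in the count files. These were the single IDs numbered from AT2G07667 to AT2G07835, taken by number alone. Pollen small RNAs were sequenced from 3 wild-type (WT) libraries, numbered 15, 19 and 25, and 3 libraries of paps1-3, numbered 16, 20 and 26. All grains were of accession Col, and paps1-3 is a mutant allele of PAPS1, the gene of a nuclear poly(A) polymerase. In each of 3 isolations mutant and WT grains were separated by sorting from a common sample, so genotype cannot be told apart from sort gate, and no plant age is given by the labels used here. Separate plants are not named either, so the spread between libraries may be technical, and in bulk pollen fewer cells of a type and less RNA per cell cannot be told apart.

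Plant mitochondria keep a genome that encodes some subunits of the respiratory chain and of ATP synthase, factors for cytochrome c maturation, some ribosomal proteins, and part of the tRNAs that the organelle uses. Copies of such DNA that have moved to the nucleus are common in plants, and the one on chromosome 2 is known as an unusually large and recent insertion in Arabidopsis. A short read from a sequence held by both genomes can be placed on either copy. Several tRNA genes of plant mitochondria, among them those for tRNA-Trp and tRNA-Asn, are themselves of plastid origin.

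The label was checked against sequence. All 96 IDs were found in the RefSeq annotation of TAIR10.1, where 18 are tRNA genes, 57 protein-coding genes and 21 pseudogenes. Of these, 92 aligned over their whole length to the mitochondrial genome of the same assembly, 54 of them as one block with no mismatch and no gap, and the lowest best identity among the 92 was 99.03%. They lie at chr2:3240494-3507323 (TAIR10.1). The other 4 IDs fall in the number range but hold no mitochondrial sequence and lie beyond that interval, from position 3514668 on. They are AT2G07680 (ABCC13, a transporter of the ABC family), AT2G07690 (MCM5, a subunit of the replicative helicase complex), AT2G07750 (a DEAD-box RNA helicase) and AT2G07760 (a zinc knuckle protein). The deposited counts carry no coordinates, and positions were looked up by ID. The processing notes name TAIR10, whose nuclear chromosomes are those of TAIR10.1, whereas the organelle sequences of the assemblies differ, so the mitochondrial sequence that reads were mapped to may not be the one aligned here.

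The sequences show how little separates the copies. The first lines give the tRNA genes whose reads rose most in paps1-3, then the serine tRNA that is present with the same bases under 2 IDs, and the tRNA with the smallest rise. Each equals a stretch of the mitochondrial genome in full, and capitals mark the anticodon. AT2G07792, a shorter tRNA-Tyr copy of 75 bases against 83 in AT2G07765, is printed without capitals.
AT2G07794 (tRNA-Ile, chr2:3383397-3383477, minus strand): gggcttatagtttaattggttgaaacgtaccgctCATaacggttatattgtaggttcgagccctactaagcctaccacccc
AT2G07752 (tRNA-Glu, chr2:3303244-3303315, minus strand): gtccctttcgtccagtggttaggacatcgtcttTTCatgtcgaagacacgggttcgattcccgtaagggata
AT2G07792 (tRNA-Tyr, chr2:3332685-3332759, plus strand): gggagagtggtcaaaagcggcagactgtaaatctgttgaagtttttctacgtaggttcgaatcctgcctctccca
AT2G07765 (tRNA-Tyr, chr2:3497358-3497440, plus strand): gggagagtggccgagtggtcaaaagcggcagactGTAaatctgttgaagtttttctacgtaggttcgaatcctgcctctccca
AT2G07762 (tRNA-Pro, chr2:3495012-3495086, plus strand): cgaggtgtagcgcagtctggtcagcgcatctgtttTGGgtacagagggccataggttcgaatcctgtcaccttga
AT2G07758 (tRNA-Met, initiator type, chr2:3462078-3462151, plus strand): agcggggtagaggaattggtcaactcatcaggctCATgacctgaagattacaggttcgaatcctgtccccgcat
AT2G07766 (tRNA-Ser, chr2:3503522-3503608, plus strand): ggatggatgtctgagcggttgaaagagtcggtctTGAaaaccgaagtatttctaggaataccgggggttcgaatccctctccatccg
AT2G07748 (tRNA-Trp, chr2:3280863-3280936, plus strand): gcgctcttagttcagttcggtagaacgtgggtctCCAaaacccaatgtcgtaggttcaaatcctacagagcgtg

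The pseudogene AT2G07731, which held most reads of the insertion, is a copy of nad6, the gene of a subunit of respiratory complex I. Its first 120 coding bases, with the start codon in capitals, were the same in the mitochondrial genome, as was the rest of its 874 bases. The copies of atp1, the alpha subunit of ATP synthase, and of nad5, another complex I subunit, differ from the mitochondrial genome at a few bases. Windows of 31 bases at such positions are shown with the differing base in capitals, the chromosome 2 copy before the mitochondrial one.
AT2G07731 (nad6 copy, chr2:3467764-3467883, minus strand): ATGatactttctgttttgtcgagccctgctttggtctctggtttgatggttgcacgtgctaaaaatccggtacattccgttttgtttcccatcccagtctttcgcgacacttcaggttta
AT2G07698 (atp1 copy, chr2:3361913-3361943, plus strand): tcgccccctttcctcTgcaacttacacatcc
atp1, mitochondrial genome: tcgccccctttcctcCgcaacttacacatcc
AT2G07711 (nad5 copy, chr2:3397711-3397741, minus strand): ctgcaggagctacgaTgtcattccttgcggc
nad5, mitochondrial genome: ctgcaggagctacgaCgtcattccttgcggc

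Libraries held 5562287 to 10139424 counted reads. Small RNA reads on PAPS1 itself (AT1G17980) were 7, 4 and 4 in WT and 0, 0 and 1 in paps1-3, which is a weak check of the labels because small RNAs do not measure the messenger RNA. Summed reads on 5 marker genes of the vegetative cell, the larger cell of the pollen grain, were 1428 to 1700 per 1000000 counted reads (RPM) in WT and 903 to 1390 in paps1-3. Markers of the sperm cells gave 14.4 to 14.6 and 7.58 to 8.97 (4 of 6 passed the count filter), leaf photosynthesis genes 14.2 to 22.6 and 4.93 to 10.7 (4 of 10), and tapetum genes 1.84 to 3.16 and 0.632 to 1.11 (0 of 7), and no list had a gene at 0 in every library. All 4 summed RPM levels were lower in paps1-3, a scale on which the sum of the insertion's reads was also lower, and their part in the results was not tested.

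Reads on the insertion made up 2.47%, 2.81% and 2.30% of all counted reads in the WT libraries and 0.754%, 1.46% and 1.07% in the paps1-3 libraries. The WT share was higher in every library, at 2.53% ± 0.263 against 1.09% ± 0.352 (SD, n = 3 each), a ratio of paps1-3 to WT of 0.433. By exact permutation of the libraries, two-sided, p was 0.1, the minimum over 20 assignments. On TMM-effective library sizes, which correct for the makeup of the libraries, the ratio was 0.734 (exact permutation p = 0.2). This sum was mostly 1 pseudogene. AT2G07731 held 96.4%, 95.4% and 94.6% of the insertion's reads in WT and 71.4%, 76.6% and 64.6% in paps1-3. Without it the sum went the other way, from 0.115% ± 0.0223 to 0.312% ± 0.0856 of counted reads, a ratio of 2.72, again with no overlap of the libraries (exact permutation p = 0.1).

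AT2G07731 had 240931, 261739 and 202296 reads in WT and 42625, 62026 and 68761 in paps1-3. Scaled by TMM, a method that sets the bulk of features to no change, this was 21542, 19764 and 14468 counts per 1000000 (CPM) against 9914, 12918 and 7829. Every paps1-3 library was below every WT library. The log2 fold change was −0.86 (SE 0.37), which was not called by edgeR's quasi-likelihood test (adjusted p = 0.137). It was called when adjacent library numbers were fitted as a block (−0.87, edgeR adjusted p = 0.0109), with DESeq2 (−0.83, adjusted p = 0.0436) and with total counted reads (−1.63, edgeR adjusted p = 0.00115). On this last scale the median of all tested features was itself −0.95, against −0.15 with TMM. Per kilobase of annotated length, AT2G07731 stood at 21271 CPM in WT and AT2G07762, a copy of the proline tRNA gene, at 743, and in paps1-3 they stood at 11694 and 10449.

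The lengths of the nad6-copy reads did not gather at the 21 or 24 nt that plant Dicer enzymes mainly produce. In WT the commonest lengths were 25 nt, with 17.2% of its reads, and 26 nt, with 16.9%, and 20 nt followed with 16%. In paps1-3 26 nt was the commonest, with 24.6%. The share at 26 nt was 21%, 14.8% and 14.8% in WT and 24%, 21.1% and 28.2% in paps1-3, without overlap (exact permutation p = 0.1, a length picked after its values were seen). Its share at 24 nt was 9.07% ± 1.34 and 10.4% ± 0.638 (SD, n = 3 each), with overlap. In edgeR fits to single lengths AT2G07731 fell at 18 nt (log2 fold change −1.62, SE 0.36, adjusted p = 0.00419) and at 21 nt (−1.11, SE 0.31, adjusted p = 0.0239). The call at 21 nt was lost without library 16 (−0.94, edgeR adjusted p = 0.0717), without library 19 (−1.10, edgeR adjusted p = 0.0762) and without library 26 (−0.93, edgeR adjusted p = 0.102). At 24 nt its value was −0.47 (SE 0.22, edgeR adjusted p = 0.139), and it was called with the block (−0.51, edgeR adjusted p = 0.0277). The difference between lengths was not tested.

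**Figure D1:**
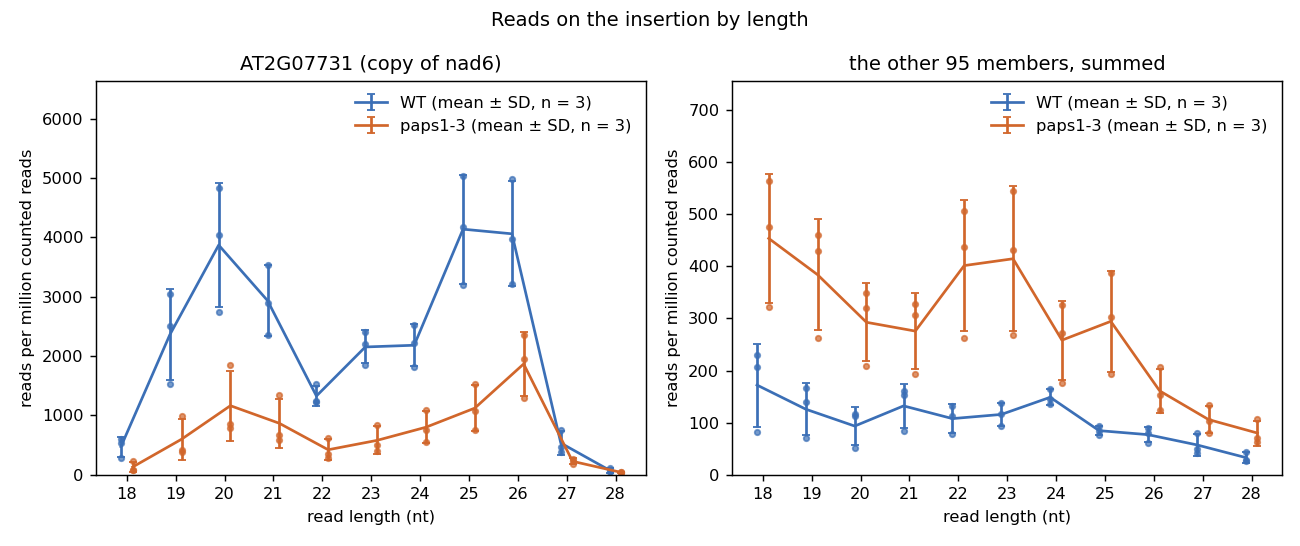
RPM, reads scaled to 1000000 counted reads (y axis) at each read length in nt (x axis) for AT2G07731, left, and for the other 95 IDs summed, right; points are libraries, lines and bars the mean ± SD of 3 libraries. The nad6 copy is higher in WT at each length, with maxima near 20 nt and at 25 to 26 nt, and the other IDs are higher in paps1-3 at each length.

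By read length, the sum over all 96 IDs was lower in every paps1-3 library from 19 to 27 nt. Ratios of paps1-3 to WT were 0.396 at 19 nt, 0.373 at 21 nt, 0.574 at 22 nt, 0.455 at 24 nt, 0.336 at 25 nt and 0.563 at 27 nt. Each of these had an exact permutation p of 0.1, or 0.122 after Benjamini-Hochberg adjustment over the 11 lengths. At 18 nt the ratio was 0.905 (exact permutation p = 0.9) and at 28 nt 1.10 (exact permutation p = 0.6), with overlapping libraries. Without AT2G07731 the paps1-3 libraries were higher at every length from 18 to 28 nt, with no overlap; the smallest ratio was 1.74, at 24 nt, and the largest 3.72, at 22 nt. At 18 nt these 95 IDs had 81.3, 206 and 229 RPM in WT and 321, 564 and 476 in paps1-3. At 24 nt they had 135, 165 and 145 in WT and 176, 272 and 326 in paps1-3, where the gap between the nearest libraries was small. The gap was smallest at 27 nt, with 80.68 RPM in WT library 15 and 80.72 in paps1-3 library 16.

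The profile of lengths was compared directly. Over all 96 IDs, 18-nt reads made up 1.49%, 2.89% and 3.30% in WT and 5.41%, 5.42% and 5.21% in paps1-3 (exact permutation p = 0.1, Benjamini-Hochberg 0.3 over 3 measures). Within AT2G07731 (exact permutation p = 0.4) and within the other IDs (exact permutation p = 1) the 18-nt shares of the genotypes overlapped. The part that the balance of AT2G07731 and the rest had in the 18-nt share over all 96 IDs was not tested. Without AT2G07731, the 24-nt share was 13.2% ± 1.82 in WT and 8.25% ± 0.319 in paps1-3 (SD, n = 3 each), with no overlap (exact permutation p = 0.1, Benjamini-Hochberg 0.3). The makeup of these reads differed too, with tRNA IDs at 27.5% of them in WT and 69.6% in paps1-3. Within the tRNA IDs the 24-nt share was 6.93% and 6.90%. The part of this makeup in the lower share was not tested. Mean length over all 96 IDs was 22.8 nt in both genotypes (exact permutation p = 0.9).

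All 96 IDs had reads, and 61 had enough to be tested over all lengths. The 35 others had at most 38 reads over the 6 libraries, and the lowest total of a tested ID was 58. Of the 61, edgeR called 37 higher in paps1-3 and 1 lower at an adjusted p under 0.05. Over all 13464 tested features 14.3% were called higher and 3.99% lower. The median log2 fold change was 1.71 over these IDs and −0.15 over all features. With total counted reads in place of TMM, 30 were called higher and 13 lower, and the medians were 0.86 and −0.95. On that scale 799 of all 13464 features were called higher and 5537 lower. Without libraries 15 and 16, 41 were higher and 1 lower, beside 2400 and 403 of the 15381 features then tested. Deviations of these libraries from their group means were the most alike of any WT and paps1-3 pair (r = 0.40). With adjacent libraries as a block 2 were lower, the second being AT2G07731, beside 1154 of all 13464 features. Libraries of the genotypes did not overlap in 41 tested IDs that were higher in paps1-3 and 4 that were lower, namely AT2G07731, AT2G07719, AT2G07667 (62 reads) and AT2G07760 (61 reads). The share of all features without overlap was not counted, so these counts do not set the insertion apart.

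The tRNA copies rose together. All 15 tested tRNA IDs were called higher in paps1-3, with log2 fold changes from 1.89 to 4.24 and a median of 3.71, and all 15 remained called under total reads, where the median was 2.85. Their RPM were 198, 426 and 343 in WT and 1463, 2391 and 2697 in paps1-3, a ratio of 6.78 (exact permutation p = 0.1). Set against the insertion's reads outside AT2G07731, they made up 27.5% ± 5.28 in WT and 69.6% ± 1.69 in paps1-3 (SD, n = 3 each). The ratio was at least 5.30 at each length from 18 to 28 nt and reached 8.10 at 23 nt. The share of tRNA reads at 24 nt was 6.93% ± 1.17 and 6.90% ± 0.385, and their mean length 21.7 and 21.9 nt, both with overlap.

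AT2G07794 matches the mitochondrial isoleucine tRNA gene with a CAT anticodon, whose C is modified in the mature tRNA so that it reads an isoleucine codon. It had 1.34, 5.59 and 3.58 CPM in WT and 68.8, 58.7 and 73.4 in paps1-3, a log2 difference of 4.24 (SE 0.43, adjusted p = 4.33e-05 by edgeR). AT2G07752, the tRNA-Glu copy, had 5.72, 12.5 and 12.2 CPM in WT and 203, 153 and 221 in paps1-3 (log2 fold change 4.24, SE 0.39). In both, every paps1-3 library was above every WT library.
The tRNA-Tyr copies AT2G07765 and AT2G07792 rose by 4.02 (SE 0.39) and 4.06 (SE 0.37) on the log2 scale. AT2G07762, the tRNA-Pro copy with the most reads among the tRNA IDs, had 41.7, 78.2 and 47.3 CPM in WT and 666, 801 and 884 in paps1-3 (log2 fold change 3.81, SE 0.38). AT2G07758, a copy of the initiator tRNA-Met gene, had 16.5, 26.4 and 17.7 CPM in WT and 264, 289 and 299 in paps1-3 (log2 fold change 3.81, SE 0.34). These copies also showed no overlap between the genotypes.

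The other tested tRNA IDs rose by less. The copies for tRNA-Gln (AT2G07746, log2 fold change 3.78), elongator tRNA-Met (AT2G07755, 3.71), tRNA-Ser with a GGA anticodon (AT2G07757, 3.58), tRNA-Gly (AT2G07756, 3.45) and tRNA-Asp (AT2G07743, 3.30) came next. The tRNA-Asn copy AT2G07764 rose by 2.79 (SE 0.30). The paired serine copies AT2G07766 and AT2G07793 each rose by 2.68 (SE 0.29 and 0.31). The tRNA-Trp copy AT2G07748 had 6.97, 4.46 and 3.86 CPM in WT and 17.2, 20 and 19.1 in paps1-3, a log2 difference of 1.89 (SE 0.24, by edgeR adjusted p = 0.000214). It stood lowest among the tested tRNA IDs. The untested tRNA IDs were AT2G07745, AT2G07753 and AT2G07761, annotated as tRNA-Tyr and aligned to a trnF pseudogene of the mitochondrial genome, with 18, 9 and 15 reads in all.

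**Figure D2:**
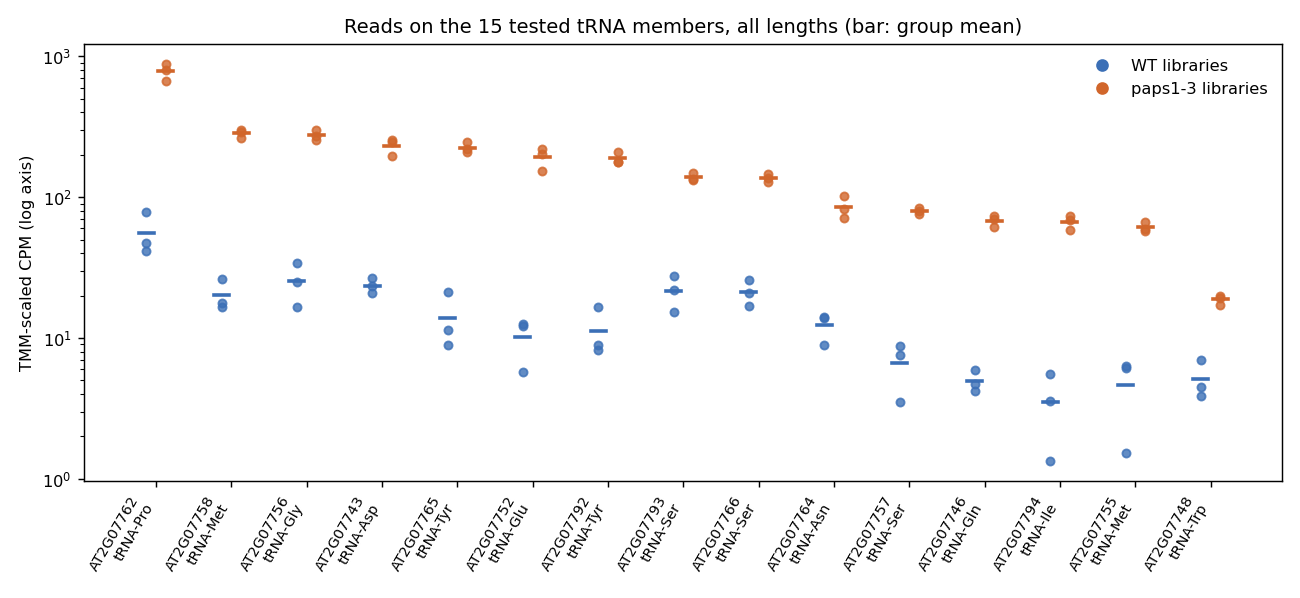
TMM-scaled CPM on a log axis (y) for the 15 tested tRNA IDs (x), each point a library and each bar a group mean. In each ID all paps1-3 libraries lie above all WT libraries.

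Commonest read lengths are given for 4 tRNA copies. AT2G07762 had 23.6% of its reads at 25 nt in WT and 22.4% in paps1-3. AT2G07758 had 24.3% and 30.8% at 22 nt. AT2G07766 was mostly short, with 25.8% at 19 nt in WT and 40.4% at 18 nt in paps1-3. In AT2G07752 the commonest length was 19 nt in WT (20.8%) and 23 nt in paps1-3 (21.1%). These are shares of pooled reads per genotype, given as a description with no test.

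An ID without a tRNA annotation also rose as these did. AT2G07775, annotated in RefSeq as an uncharacterized protein, spans a copy of the mitochondrial initiator tRNA-Met gene. It had 2.68, 5.06 and 3.36 CPM in WT and 32.6, 58.3 and 38.3 in paps1-3 (log2 fold change 3.53, SE 0.32), and 53.5% and 58.3% of its reads were 18 nt long. AT2G07706, which spans the isoleucine tRNA copy on the same strand as AT2G07794, had 8.67, 4.23 and 4.79 CPM in WT and 4.19, 4.79 and 6.15 in paps1-3, with a log2 fold change of −0.19 that was not called. The sources used here do not say how reads on overlapping IDs were divided.

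Copies of respiratory chain and ATP synthase genes were the largest group of named protein genes. Of 12 tested, edgeR called 9 higher and 0 lower (1 lower at an unadjusted p under 0.05), and 3 were not called, with a median log2 fold change of 2.35 and a range from −0.86 to 3.49. By DESeq2 and with the block, 10 were higher and 1 lower, and with total reads 8 were higher and 1 lower. Of all 13464 features, DESeq2 called 1826 higher and 286 lower. The block called 2530 higher and 1154 lower, and total reads 799 and 5537. The ATP synthase copies included AT2G07741 and AT2G07699, both of atp6, a membrane subunit of the proton channel. AT2G07741 had 1.61, 3.32 and 2.22 CPM in WT and 27.2, 25 and 28.7 in paps1-3 (log2 fold change 3.49, SE 0.27), and AT2G07699 rose by 3.30 (SE 0.25). AT2G07707, a copy of atp8, rose by 3.10 (SE 0.32). AT2G07698, the atp1 copy, had 24.7, 27.6 and 21 CPM in WT and 137, 126 and 144 in paps1-3 (log2 fold change 2.48, SE 0.28).

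Of the electron transport genes, AT2G07687, a copy of cox3 of cytochrome c oxidase whose span also takes in sdh4 sequence, had 5.28, 9.82 and 8.80 CPM in WT and 64.7, 58.3 and 75.3 in paps1-3 (log2 fold change 3.05, SE 0.30). AT2G07727, a copy of the cytochrome b gene cob, rose by 2.67 (SE 0.26). The complex I copies were spread widely. AT2G07733 (nad2) rose by 2.23, AT2G07751 (nad3) by 1.92 and AT2G07711 (nad5) by 1.28, the last without a call on total reads (0.45, edgeR adjusted p = 0.144), while AT2G07717 (nad4) had 146, 135 and 126 CPM in WT and 195, 167 and 149 in paps1-3, with no overlap but a log2 change of 0.33 that was not called (SE 0.28). AT2G07671, a copy of atp9, had 84.0, 87.1 and 81.6 CPM in WT and 138, 126 and 142 in paps1-3. Its libraries did not overlap, but edgeR did not call its log2 fold change, which was 0.69 (SE 0.27, adjusted p = 0.0998). With the block it was called (0.69, edgeR adjusted p = 0.00609), and with total reads its value was −0.11, in the opposite direction. At 21 nt alone AT2G07671 was called higher (1.65, SE 0.32, edgeR adjusted p = 0.00262), but not with no count filter (1.38, edgeR adjusted p = 0.0695).

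**Figure D3:**
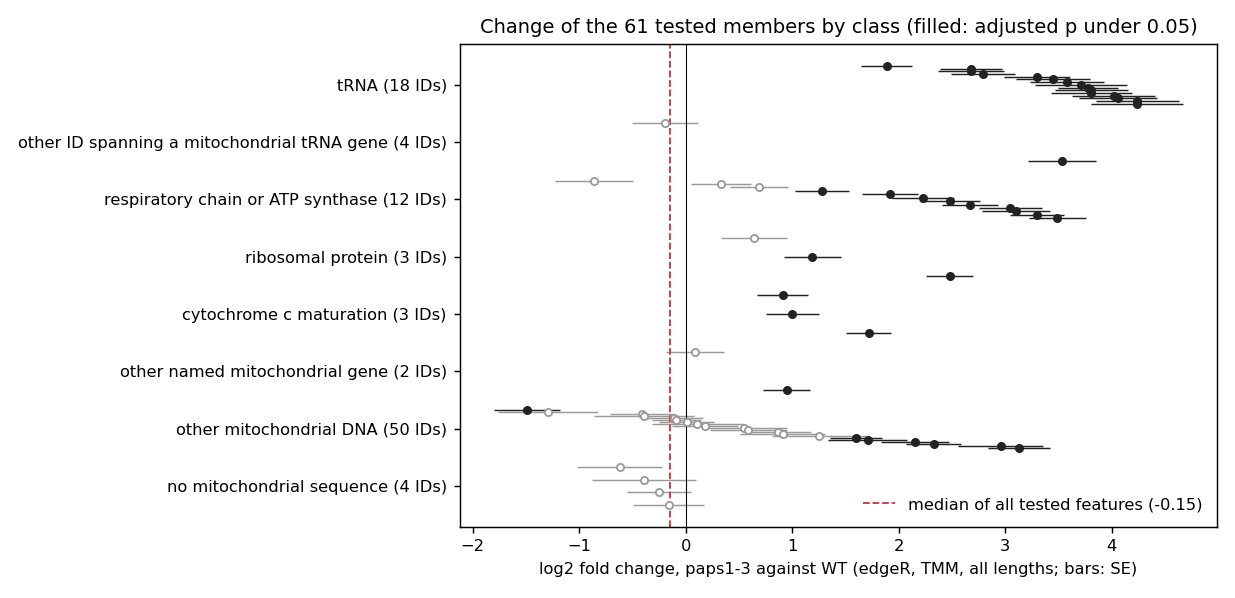
Log2 fold change of paps1-3 against WT (x axis, edgeR with TMM, bars are SE) for the 61 tested IDs in 8 classes (y axis); filled points passed an adjusted p of 0.05, and the dashed line is the median of all tested features, −0.15. tRNA copies lie furthest right, and the IDs with no mitochondrial sequence lie between −0.62 and −0.16.

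Smaller groups of named genes gave lower values. All 3 copies of cytochrome c maturation genes, which serve the attachment of heme to cytochrome c, were called higher. These were AT2G07783 (ccmFN1, log2 fold change 1.72, SE 0.21), AT2G07681 (ABCI4, a copy of ccmC, 1.0, SE 0.25) and AT2G07768 (ccmFN2, 0.91, SE 0.24). With total reads 1 of the 3 was called, and AT2G07768 was also not called without library 19 (0.88, edgeR adjusted p = 0.0727) or without library 20 (0.77, edgeR adjusted p = 0.0763). Of 3 ribosomal protein copies, AT2G07675 (rps12) rose by 2.48 (SE 0.22) and AT2G07715 (rpl2) by 1.19 (SE 0.27), and AT2G07734 (rps4) had 0.64 and was not called. With total reads AT2G07715 was no longer called (0.40, edgeR adjusted p = 0.353). AT2G07734 was called with the block (0.71, edgeR adjusted p = 0.0276) and without library 15 (1.22, edgeR adjusted p = 0.00378), and its value was −0.13 with total reads. AT2G07712 holds the intron-maturase gene matR, and its span also takes in nad1 sequence. It was grouped by matR and not with the complex I copies. Its log2 fold change was 0.95 (SE 0.22), a call that was lost with total reads (0.11, edgeR adjusted p = 0.776) and without library 26 (0.91, edgeR adjusted p = 0.0567). AT2G07716, a copy of mttB, a protein translocase gene, had 76.6, 84.9 and 65.5 CPM in WT and 90.2, 75.8 and 75 in paps1-3. Its libraries overlapped, and its log2 fold change was 0.09 (SE 0.27) with TMM and −0.73 with total reads.

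The remaining 50 IDs of mitochondrial DNA match no larger part of a named mitochondrial gene, and 20 of them were tested. Of these, 6 were called higher and 1 lower, with a median log2 fold change of 0.57 with TMM. With total reads the median was −0.24, and 4 were higher and 6 lower, against 799 and 5537 of all 13464 features. With the block 8 were higher, the added ones being AT2G07718 (0.86) and AT2G07787 (1.31). The higher ones were AT2G07835 (log2 fold change 3.13), AT2G07689 (2.96), AT2G07786 (2.33), AT2G07674 (2.15), AT2G07773 (1.71) and AT2G07695 (1.60). RefSeq lists AT2G07835 and AT2G07674 as uncharacterized proteins, AT2G07773 as a cytochrome b protein and AT2G07689 as a complex I protein. AT2G07773 and AT2G07695 were not called with total reads (0.86 and 0.82). The lower ID was AT2G07719, annotated as a putative membrane lipoprotein, at chr2:3432137-3433656 (TAIR10.1). It had 19.1, 10.3 and 9.15 CPM in WT and 4.19, 3.75 and 5.47 in paps1-3. All WT libraries were above all paps1-3 libraries, and edgeR gave a log2 fold change of −1.49 (SE 0.31, adjusted p = 0.00509). Library 15 weighed on its size, and without it the value was −0.92 (edgeR adjusted p = 0.0156). In WT 40.1% of its reads were 25 nt long, and at 24 nt it was also called lower (−1.82, SE 0.42, edgeR adjusted p = 0.0057), except without library 26 (−1.35, edgeR adjusted p = 0.103). AT2G07811, noted in RefSeq as a pseudogene of a mitochondrial protein, had 79.7, 77.7 and 78.5 CPM in WT and 79.8, 79.1 and 79.4 in paps1-3. Its log2 fold change was 0.01 (SE 0.26) with TMM and −0.79 with total reads.

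Of the 4 IDs without mitochondrial sequence, edgeR with TMM and DESeq2 both called 0, and 0 had an unadjusted edgeR p under 0.05. Their median log2 fold change was −0.32 with TMM, and with total reads all 4 were called lower, with a median of −1.13. On that scale 5537 of all 13464 tested features were called lower, and the median over all of them was −0.95. AT2G07750, the RNA helicase gene and the one with most reads, had 20.3, 26.7 and 21.2 CPM in WT and 27.9, 24 and 10.2 in paps1-3, with overlap. Of its reads 88.8% in WT and 93.8% in paps1-3 were 18 nt long. The 10 neighbouring single IDs on chromosome 2, from AT2G07500 to AT2G08100 outside the range, held 5 tested IDs, with a median log2 fold change of −0.17. The single call was AT2G07560 (HA6, a plasma membrane proton pump), higher by 2.66 and named after its value was seen, and 0 were lower, also at an unadjusted edgeR p under 0.05. The ATMG features, the IDs of the mitochondrial genome in the same files, held 76 tested IDs of 137, of which 56 were called higher and 0 lower (edgeR; 1 lower at an unadjusted p under 0.05), with a median of 2.15. The difference between these groups was not tested.

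At single lengths fewer IDs could be tested. At 18 nt, 22 of 31 were called higher and 3 lower, against 22.3% and 15.6% of all features at that length. The lower IDs were AT2G07731, the pseudogene AT2G07688 (−1.55, SE 0.49) and AT2G07811 (−0.99, SE 0.30). The calls of the last 2 were each lost when any of 4 libraries was left out: 16, 20, 25 or 26 for AT2G07688, where values ran from −1.80 to −1.02, and 16, 19, 25 or 26 for AT2G07811, where they ran from −0.89 to −0.75. At 21 nt, 28 of 34 were higher and 1 lower, against 14.5% and 4.68%. At 24 nt, 21 of 33 were higher and 1, AT2G07719, lower, against 16.8% and 6.23%. The tRNA copies were called higher in 13 of 14 tested at 18 nt, 14 of 14 at 21 nt and 14 of 14 at 24 nt, the exception at 18 nt being the tRNA-Asn copy AT2G07764, with median log2 fold changes of 3.22, 3.61 and 3.94. The respiratory chain and ATP synthase copies were called higher in 7 of 10, 9 of 11 and 6 of 9, and the lower call among them at 18 and 21 nt was AT2G07731. With the block, 6 IDs were lower at 18 nt and 2 at 24 nt, the second at 24 nt being AT2G07731. Of all features, 763 of 2534 were then lower at 18 nt and 298 of 3593 at 24 nt.

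The counts were then set against the ATMG features. Over the 66 values of an ID, 6 libraries at 11 lengths, no ID with at least 10 reads (87 IDs) had the same count as an ATMG feature throughout. The closest was AT2G07731, whose values differed from those of ATMG00270 by 0.939% of its reads in all. ATMG00270 had 241005, 261157 and 201973 reads in WT and 42348, 61783 and 68614 in paps1-3, beside the values of AT2G07731 given above. AT2G07762 and ATMG00350 differed by 5.97%, with 427, 1069 and 724 reads for ATMG00350 in WT and 2816, 3908 and 7705 in paps1-3, against 466, 1035 and 662 and 2865, 3844 and 7764 for the chromosome 2 copy. Within a tolerance of 10% these 2 IDs were nearly equal, and within 20% 15 were.

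How close the counts were was also expressed against counting noise. The squared difference of both counts divided by their sum averages 1 if each read is placed on either copy at random. This index was 1.15 for AT2G07731 and 1.05 for AT2G07762. Of the 25 IDs with at least 1000 reads it was at most 2 in 17, among them the nad3, nad5 and cob copies (1.26, 1.10 and 1.05). It was above 2 in 8, with 25.4 for AT2G07671, 28.1 for AT2G07716, 24.2 for AT2G07811 and 55.9 for AT2G07750. These IDs had no ATMG feature with near counts, and the last holds no mitochondrial sequence. The closest feature was picked by its counts from the 137 and is not shown to be the same gene: ATMG00460 was closest both to the tRNA-Ile copy AT2G07794 and to the cox3 copy AT2G07687.

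**Figure D4:**
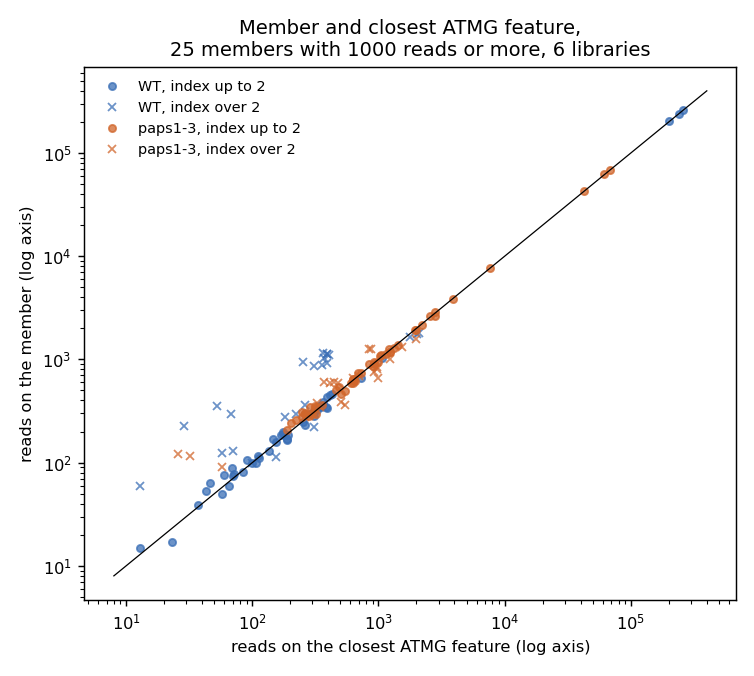
Reads on an ID (y, log axis) against reads on its closest ATMG feature (x, log axis), with a point for each library. Shown are the 25 IDs with at least 1000 reads in total over the 6 libraries. The line marks equality, and crosses mark IDs whose index of squared difference over sum is above 2. Circles, 17 IDs in all, lie along the line in both genotypes. Partner and symbol were both chosen by closeness of counts, so this position follows from the choice and is no evidence of shared reads.

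Copies within the insertion were compared in the same way. The serine tRNA IDs AT2G07766 and AT2G07793, which have the same 87 bases, held 189, 344 and 293 against 170, 365 and 306 reads in WT and 586, 617 and 1275 against 639, 632 and 1180 in paps1-3, with an index of 1.19. The atp6 copies AT2G07699 and AT2G07741 had an index of 0.802. The tyrosine copies AT2G07765 and AT2G07792, whose lengths differ, had an index of 3.42, and AT2G07792 had fewer reads in 5 of 6 libraries. The 6 IDs that RefSeq notes as pseudogenes of a given ATMG feature had few reads: AT2G07813 had 58 against 67 on ATMG01260, AT2G07808 38 against 44 on ATMG01330, AT2G07826 19 against 24 on ATMG01210, AT2G07799 10 against 11 on ATMG00260 and AT2G07809 5 against 11 on ATMG00600. AT2G07807 was far from its feature, with 9 reads beside 5108 on a joined ID of ATMG01060 and ATMG01070, in which its feature has no count of its own. For all IDs that match the mitochondrial genome, the genome of origin of the reads cannot be told apart from these counts.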

How the data were processed

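Per the file headers, the deposited files hold raw counts of reads per annotated segment, 1 column per read length from 18 to 28 nt. Per the submitters' processing notes, Trimmomatic, BWA, SAMtools, bedtools and TAIR10 were used, without versions. Handling of multi-mapping reads and of strand is not given by these sources.

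Counts were summed per ID. IDs that join several genes stayed out of the comparisons. Changes were tested on the whole table with edgeR 4.0.16 (R 4.3.3): robust quasi-likelihood, TMM, filterByExpr, Benjamini-Hochberg adjustment at 0.05, over all lengths and at 18, 21 and 24 nt. The step was tested on simulated data. Shares and RPM (reads per 1000000 counted reads) were compared by exact two-sided permutation over 20 assignments. The permutation did not pair libraries by isolation. Depths of 5562287 to 10139424 reads set the precision. Members were matched to RefSeq TAIR10.1 by ID and aligned with BLAST 2.17.0.

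Alternatives were DESeq2 1.42.0, limma-trend (limma 3.58.1, prior count 2), RLE factors, total reads, TMM without structural and organellar features, other filters, a block, and each library left out. Leaving out libraries 15 and 16 together, leaving out the 4 IDs without mitochondrial sequence, and the noise index were added after seeing the data. For the block, adjacent library numbers were taken as the isolations, though the labels give no pairing. Adjacent libraries deviated from their genotype means together (r = 0.40, 0.24 and 0.23, other pairs −0.29 to 0.12). These correlations come from the counts that the block was fitted to, so they are no independent evidence of the pairing.

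Members and lists were chosen with earlier results of these data known. Named were the members with most reads, the largest changes, all tested tRNA IDs, and the top member of each class; further class members (such as cox3, cob and atp6) were chosen after their values were seen. Python 3.11.15 with pandas 2.3.3, numpy 2.4.6 and matplotlib 3.10.9 was used.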

Additional observations from a re-analysis of the deposited data

Results flagged for a closer look

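Segments covered by 2 genes carry joined IDs and were outside the comparisons. Of 11 joined IDs with a number of the insertion, 5 had more reads per 1000000 counted reads in every paps1-3 library than in any WT library. AT2G07827 and AT2G07830 had 0.591 ± 0.435 in WT and 4.65 ± 1.99 in paps1-3 (SD over 3 libraries), or 7.86 times as many, on 1 to 49 reads a library. The ratio was 5.33 for AT2G07754 and AT2G07774, 4.87 for AT2G07759 and AT2G07795, and 4.61 for AT2G07739 and AT2G07763. For AT2G07725 and AT2G07726 it was 1.53, on 35 to 76 reads a library. AT2G07749 and AT2G07812 went the other way without overlap (3.89 ± 0.818 and 1.68 ± 0.374, ratio 0.434), and the other 5 overlapped. These values were not tested, and the share of all features without overlap was not counted. With total counted reads the median log2 fold change of all tested features was −0.95.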

How the results depend on the processing

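Counts of IDs called higher stayed within 1.5 times under each alternative run, from 30 to 41 at all lengths. Counts of IDs called lower were small and moved. At all lengths (1) they were 13 with total reads and 2 with DESeq2, no filter or the replicate block. At 18 nt (3) they were 6 with total reads, 1 with TMM from other features, 1 with no filter, 6 with the block, and 1 to 4 with a library left out. At 21 nt (1) they were 2 with no filter, the stricter filter or without libraries 15 and 16, and 0 to 1 with a library left out. At 24 nt (1) they were 6 with total reads, 2 with no filter or the block, and 0 to 1 with a library left out. The block changed no other count by over 1.5 times. Lower calls over all features moved as well, at all lengths from 537 to 5537 of 13464 with total reads. At 18 nt they went from 396 to 763 of 2534 with the block and to 1105 with total reads. At 24 nt they went from 224 to 298 of 3593 with the block and to 2118 with total reads.

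Of 375 values for 25 named IDs, 361 kept direction and call, 9 became called and 5 reversed. With total reads AT2G07671 gave −0.11, AT2G07716 −0.73, AT2G07717 −0.49 and AT2G07811 −0.79, and without a library AT2G07750 ranged from −0.40 to 0.23. The scale itself moved the median of all features from −0.15 to −0.95.

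The ratio for the sum over all IDs reversed to 2.72 without AT2G07731 and 2.34 without the 2 nearly equal IDs. By length these were 2.63 and 2.42 at 18 nt, 3.05 and 2.78 at 19, 3.13 and 2.54 at 20, 2.09 and 1.79 at 21, 3.72 and 3.31 at 22, 3.58 and 3.10 at 23, 1.74 and 1.59 at 24, 3.47 and 2.33 at 25, 2.09 and 1.82 at 26, and 1.85 and 1.56 at 27. At 18 nt the ratio was also 1.01 per read outside organelles and the insertion, 1.60 on TMM-effective sizes, and 0.744 to 1.04 with a library left out; at 28 nt that range was 0.955 to 1.51. The difference in 24-nt share became −4.91 and −4.57 percentage points and that in mean length −0.278 and −0.36 nt without the same IDs, and mean length ranged from −0.12 to 0.378 nt with a library left out. IDs equal to an ATMG feature numbered 0, and 1, 1, 2 and 15 within 1%, 5%, 10% and 20%, at 10 or 100 reads. Removing AT2G07731 removes most of the reads; the cause of the other moves was not tested. IDs under 58 reads were not tested, which limits what can be said of 35.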
